A study of Mus musculus with 10 samples.

Results

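Mouse erythroleukemia (MEL) subclones FBB1.7 and FBB1.10 were set against subclones FBB1.5 and FBB1.11, which were made from the same parental line with the same construct. The sides were chosen from a readout: Hsp90b1 and Calr, genes of 2 chaperones of the endoplasmic reticulum (ER), were raised in FBB1.7 and FBB1.10. Both genes are therefore described here with no test. The comparison used 8 of the 10 arrays of the series, 4 on each side, and the 2 parental arrays entered no test.

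MEL cells come from a virus-induced mouse leukemia and resemble early red cell precursors. The parental Mel-BirA line carries BirA, a bacterial enzyme that attaches biotin to a short peptide tag. All 4 subclones are Mel-BirA cells that stably express FLAG-Biotag-BCL11A, that is, BCL11A with a FLAG epitope and a biotin acceptor tag. BCL11A is a DNA-binding protein that silences fetal globin genes. Each line was measured on 2 Affymetrix Mouse Genome 430 2.0 arrays. Each subclone is 1 line, so a difference between the sides is a difference between these 4 lines and cannot be assigned to the construct, which both sides carry.

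The ER folds and modifies proteins that are secreted or placed in membranes. Hsp90b1 (GRP94) and Hspa5 (BiP) bind unfolded chains, Calr and Canx hold glycoproteins while they fold, and the Pdia enzymes form disulfide bonds. When unfolded proteins accumulate, the sensors Ire1, Perk and Atf6 raise chaperone genes, and Perk acts through Atf4 on amino acid supply and on Ddit3 (CHOP). That program is called the unfolded protein response.

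Values are the deposited probe set intensities, compared as log2(intensity + 16), which understates the change of dim genes. A log2 difference is the mean of FBB1.7 and FBB1.10 minus the mean of FBB1.5 and FBB1.11, given with its standard error (SE). Of 45101 probe sets, 24642 exceeded the table median of 30.5 in at least 2 of the 8 arrays and were tested. They name 12366 genes, each represented by its brightest probe set unless stated. Adjusted p-values are from limma with Benjamini-Hochberg adjustment over all tested probe sets, and a probe set passed at 0.05. The labels do not state whether a line's 2 arrays were grown apart, so the p-values describe array-to-array spread, which may be technical. Array medians lay between 29.6 and 31.6. The 3'/5' ratio of the actin control probe sets, which rises with RNA degradation, was 1.47 on FBB1.5 array 1 and 1.06 to 1.17 on the other 7 subclone arrays. The lowest ratios were those of FBB1.7, 1.07 and 1.06.

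Hsp90b1 read 1762 and 1797 in FBB1.7 and 1648 and 1631 in FBB1.10, against 916 and 934 in FBB1.5 and 1124 and 1221 in FBB1.11. Calr read 4906 and 4623 in FBB1.7 and 4931 and 5156 in FBB1.10, against 2895 and 2949 in FBB1.5 and 3783 and 3420 in FBB1.11. No array of one side overlapped the other for either gene, which is how the sides were drawn, and FBB1.11 stood between FBB1.5 and the raised pair. The log2 differences were 0.71 for Hsp90b1 and 0.59 for Calr. Both probe sets of Hsp90b1 (0.64 and 0.71) and all 3 of Calr (0.54 to 0.59) gave like values.

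Among the other ER chaperones and folding enzymes, Hspa5, Pdia6 and Canx followed the same split in every pairing of lines. Hspa5 read 1425 and 1380 in FBB1.7 and 1443 and 1672 in FBB1.10, against 827 and 765 in FBB1.5 and 1007 and 1119 in FBB1.11. Its log2 difference was 0.67 ± 0.06 (SE, limma adjusted p = 1.01e-05). A second Hspa5 probe set gave 0.77, and another, dimmer one gave 0.09 and did not pass. Pdia6, a disulfide isomerase, read 1175 and 1126 in FBB1.7 and 874 and 1056 in FBB1.10, against 554 and 649 in FBB1.5 and 602 and 599 in FBB1.11. Its log2 difference of 0.79 ± 0.07 (limma adjusted p = 9.31e-06) was the highest of the ER list, while a second, dim probe set gave 0.03 and did not pass. Canx, the membrane-bound partner of calreticulin, averaged 3064 ± 190 in FBB1.7 and FBB1.10 and 2522 ± 76.8 in FBB1.5 and FBB1.11 (SD, n = 4 arrays each). The Canx log2 difference was small, 0.28 ± 0.05 (limma adjusted p = 0.00117), yet passed in each of the 4 contrasts of single lines.

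The list of ER chaperones and folding enzymes held 29 tested genes, of which 10 were higher and 2 lower in FBB1.7 and FBB1.10. Over all 12366 tested genes, 10.9% passed, 4.99% higher and 5.9% lower. Without Hsp90b1 and Calr, 8 of 27 members were higher, and their median log2 difference was 0.07, against -0.02 over all tested genes. The arrays of the sides did not overlap for any of these 8. That is common once a gene has passed, as 428 of the 617 tested genes that passed higher did not overlap. Over all tested probe sets, 5.87% were higher without overlap. With Hsp90b1 and Calr counted, 8 members were higher without FBB1.7, 10 without FBB1.10, 7 without FBB1.5 and 9 without FBB1.11. In a fit that also held the actin ratio, 8 passed. These counts hold the genes that chose the sides and do not describe the other members alone. Pdia3, a disulfide isomerase that works with Calr and Canx, averaged 1512 ± 56.2 in FBB1.7 and FBB1.10 and 1082 ± 136 in FBB1.5 and FBB1.11 (log2 difference 0.48 ± 0.06, limma adjusted p = 7.49e-05). The Hspa5 cochaperone Dnajb11 (log2 difference 0.39, limma adjusted p = 0.00196) and the secreted folding factor Manf (0.39, limma adjusted p = 0.00272) also passed higher. Both passed in the pairings with FBB1.5 and in neither with FBB1.11. Dnajb11 averaged 391 in FBB1.7 and 427 in FBB1.10, against 281 in FBB1.5 and 340 in FBB1.11. Manf averaged 458 in FBB1.7 and 466 in FBB1.10, against 314 in FBB1.5 and 386 in FBB1.11. Sdf2l1 and Dnajc3, both partners of Hspa5, passed at log2 differences of 0.30 each, with limma adjusted p of 0.0301 and 0.0331. Sdf2l1 kept its call only when the array left out was FBB1.7 array 1, FBB1.10 array 1 or FBB1.5 array 2, and Dnajc3 only without FBB1.7 array 1 or FBB1.5 array 2. The list did not move as a whole. Pdia4 (0.11), P4hb (0.11), Hyou1 (0.00), Creld2 (0.17) and Dnajb9 (-0.05) did not pass, and the thioredoxin-like enzymes Txndc5 (-0.42, limma adjusted p = 0.00126) and Tmx1 (-0.28, limma adjusted p = 0.0128) fell. Tmx1 lost its call without FBB1.7 array 1 or FBB1.11 array 2. Ero1a, which reoxidises the disulfide isomerases, was split between probe sets. Its brightest did not pass (0.15), while another read 1256 and 1139 in FBB1.7 and 1560 and 1073 in FBB1.10, against 572 and 583 in FBB1.5 and 692 and 611 in FBB1.11.

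**Figure D1:**
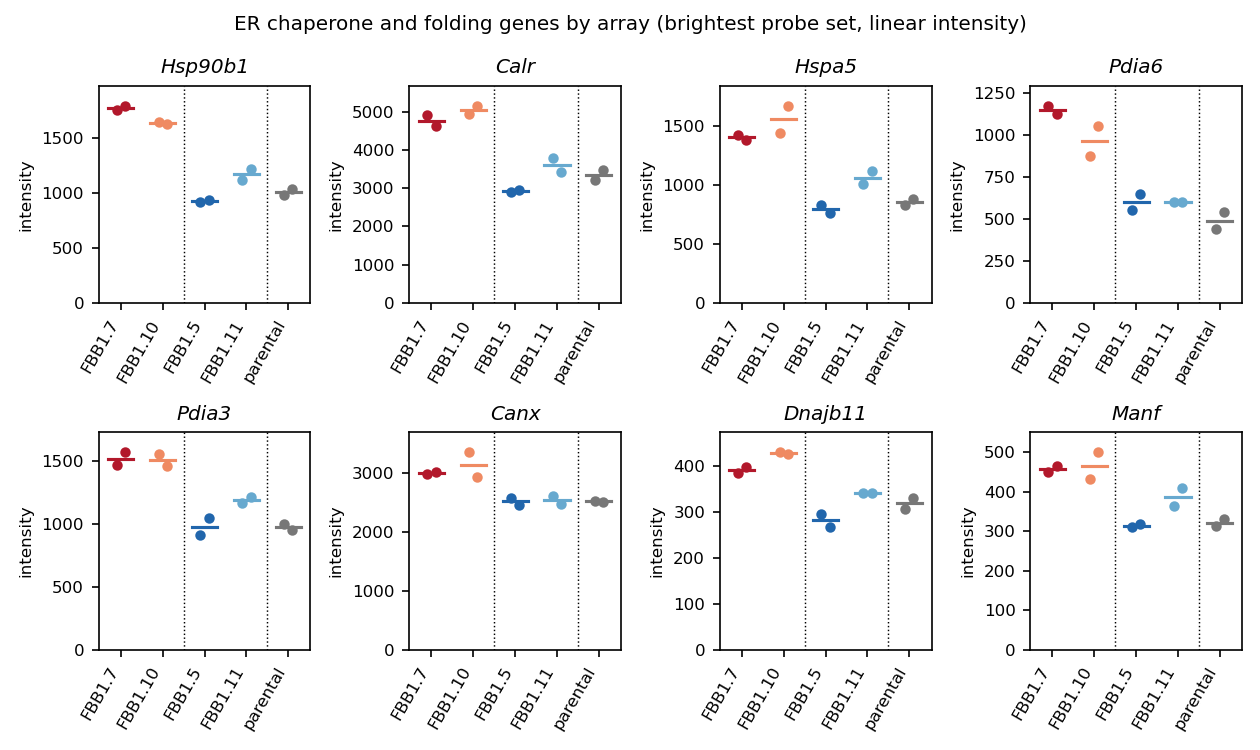
Intensity (linear scale, from 0) of the brightest probe set of 8 ER genes on each array, with points for arrays and bars for the mean of 2 arrays a line; dotted lines part FBB1.7 and FBB1.10, FBB1.5 and FBB1.11, and the parental line. The 4 arrays of FBB1.7 and FBB1.10 lay above the 4 of FBB1.5 and FBB1.11 for each gene, and Hsp90b1 and Calr are shown as the genes that chose the sides.

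Hspa5, Pdia6 and Canx, and Hsp90b1 and Calr that chose the sides, hold in their promoters the ER stress response element, a motif known to be bound by NF-Y and Atf6. The element was searched as CCAAT, any 9 bases and CCACG, on both strands, in windows from 250 bases before to 50 bases after each RefSeq gene start (assembly GRCm38.p6). The 250 bases before the start are printed 5' to 3' on the gene's strand, with each match in capitals, since the genes named first in this comparison carry it. They are chr10:86705445-86705694 (minus strand) for Hsp90b1, chr8:84846932-84847181 (minus) for Calr, chr2:34771840-34772089 (plus) for Hspa5, chr12:17266339-17266588 (plus) for Pdia6 and chr11:50325674-50325923 (minus) for Canx.
Hsp90b1: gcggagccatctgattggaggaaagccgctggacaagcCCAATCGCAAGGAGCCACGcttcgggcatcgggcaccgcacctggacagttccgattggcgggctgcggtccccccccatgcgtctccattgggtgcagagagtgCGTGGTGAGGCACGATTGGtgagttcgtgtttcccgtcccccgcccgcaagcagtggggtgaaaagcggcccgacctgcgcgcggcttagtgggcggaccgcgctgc
Calr: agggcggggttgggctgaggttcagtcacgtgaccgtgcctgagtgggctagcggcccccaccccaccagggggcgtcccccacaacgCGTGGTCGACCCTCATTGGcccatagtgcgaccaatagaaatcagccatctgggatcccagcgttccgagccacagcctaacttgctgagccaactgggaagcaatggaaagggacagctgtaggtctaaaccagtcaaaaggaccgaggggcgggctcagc
Hspa5: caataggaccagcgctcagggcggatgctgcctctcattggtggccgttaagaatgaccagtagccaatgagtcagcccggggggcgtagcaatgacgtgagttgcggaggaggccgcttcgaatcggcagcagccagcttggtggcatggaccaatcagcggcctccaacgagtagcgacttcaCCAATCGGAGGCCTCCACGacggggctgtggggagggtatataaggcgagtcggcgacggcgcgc
Pdia6: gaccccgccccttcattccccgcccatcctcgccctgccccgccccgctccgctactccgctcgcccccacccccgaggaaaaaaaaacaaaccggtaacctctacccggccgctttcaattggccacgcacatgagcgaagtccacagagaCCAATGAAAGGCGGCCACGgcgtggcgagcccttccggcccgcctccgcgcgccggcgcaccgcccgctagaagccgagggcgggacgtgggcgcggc
Canx: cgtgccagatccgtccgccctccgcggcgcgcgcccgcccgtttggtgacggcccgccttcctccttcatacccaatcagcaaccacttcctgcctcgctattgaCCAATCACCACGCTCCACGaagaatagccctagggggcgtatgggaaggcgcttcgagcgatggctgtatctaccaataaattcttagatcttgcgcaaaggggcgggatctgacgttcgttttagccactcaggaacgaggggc
Hsp90b1 has 2 matches, one on each strand, and the match of Calr lies on the opposite strand. The matches begin 212 and 107 bases before the start for Hsp90b1, and 162, 65, 98 and 145 bases before it for Calr, Hspa5, Pdia6 and Canx.

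Of 32851 windows searched, 39 (0.119%) held the element, in 37 genes. In the ER list, 25 genes had a window and 8 of them held the element. Without Hsp90b1 and Calr, 4 of 6 were higher (Hspa5, Pdia6, Canx and Dnajc3). Creld2 (0.17) and Ero1b (-0.09) held it and did not pass. Of the 17 tested list members with a window and no match, 3 were higher and 2 lower. Outside the list, 8 tested genes held the element and 0 passed in limma (1 at an unadjusted p under 0.05), among them Syvn1 (-0.10), an ER ubiquitin ligase, and Derl3 (-0.01). A match is a run of letters and not a measured binding site.

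The steps of the secretory pathway around folding moved in part. Of 19 tested genes of ER translocation and signal peptide processing, 4 were higher and 1 lower. Sec63, which helps Hspa5 draw chains through the translocon, averaged 186 ± 14.5 in FBB1.7 and FBB1.10 and 127 ± 18.1 in FBB1.5 and FBB1.11 (SD, n = 4 arrays each; log2 difference 0.50, limma adjusted p = 0.00236). Spcs1, the lower member, lies on chromosome 14. Of 15 N-glycosylation genes, 3 were higher and 2 lower, and the oligosaccharyltransferase subunit Rpn1 averaged 1201 ± 86.4 in FBB1.7 and FBB1.10 and 876 ± 50.4 in FBB1.5 and FBB1.11 (log2 difference 0.45, limma adjusted p = 0.000219). Rpn1 passed on all 5 of its tested probe sets. Of 18 ER-associated degradation genes, 2 were higher (Selenos and Ufd1), and both lost their calls without FBB1.7 array 2, FBB1.10 array 1 or FBB1.11 array 1. Derl1, another gene of ER-associated degradation, passed higher in all 4 pairings on 1 of its 4 tested probe sets. Of 27 vesicle transport genes, 1 was higher and 6 were lower. None of the lower ones passed in a pairing with FBB1.11, and Arf4 and Sec24c among them lie on chromosome 14. Arf4 averaged 809 in FBB1.7 and 846 in FBB1.10, against 1343 in FBB1.5 and 787 in FBB1.11. The higher one, the COPII coat subunit Sec13, read 679 and 647 in FBB1.7 and 495 and 519 in FBB1.10, against 298 and 314 in FBB1.5 and 363 and 430 in FBB1.11 (log2 difference 0.71 ± 0.07, limma adjusted p = 2.12e-05). Among the lower ones was Kdelr2 (-0.25), a receptor that returns chaperones to the ER, which lost its call without FBB1.7 array 1, FBB1.10 array 1 or FBB1.11 array 2.

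Of 17 sensors and factors of the unfolded protein response, 3 were higher and 1 lower. Ddit3, a transcription factor of prolonged ER stress, read 2431 and 2016 in FBB1.7 and 2668 and 2230 in FBB1.10, against 1459 and 1301 in FBB1.5 and 1797 and 1795 in FBB1.11. Its log2 difference was 0.56 ± 0.07 (limma adjusted p = 8.37e-05), and a second probe set gave 0.32 and did not pass. Crebrf, a regulator of the response, rose by 0.47 (limma adjusted p = 0.00221). Xbp1, the factor spliced by Ire1, passed at 0.27 (limma adjusted p = 0.026), with arrays that overlapped between the sides, and lost its call without FBB1.7 array 2, FBB1.10 array 1, FBB1.5 array 2 or either FBB1.11 array. Of its other 3 probe sets, those at 0.43 and 0.25 passed and one at 0.37 did not. The array does not separate spliced from unspliced Xbp1.

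Of 23 genes of the Atf4 amino acid response, 7 were higher and 1 lower. Nupr1, a stress-induced chromatin protein, averaged 2460 ± 187 in FBB1.7 and FBB1.10 and 1701 ± 165 in FBB1.5 and FBB1.11 (SD, n = 4 arrays each). Its log2 difference of 0.53 ± 0.05 (limma adjusted p = 2.67e-05) passed in every pairing of lines, and a second probe set gave 0.54. Asparagine synthetase, Asns, was 0.29 higher on the log2 scale (limma adjusted p = 0.000532), as were the heavy and light chains of a leucine carrier, Slc3a2 and Slc7a5 (0.31 each). Atf5, a factor of the same response, fell. It averaged 571 ± 111 in FBB1.7 and FBB1.10 and 846 ± 71.4 in FBB1.5 and FBB1.11 (log2 difference -0.57 ± 0.07, limma adjusted p = 0.000113). Trib3 (0.17), Chac1 (-0.01) and Phgdh (0.03) did not pass.

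Of 18 aminoacyl tRNA synthetases, which load amino acids onto tRNA, 7 were higher and 1 lower. Hars rose by 0.46 and Qars fell by 0.41 on the log2 scale (limma adjusted p of 0.00019 and 0.000526). The count of higher synthetases was 3 without FBB1.7, 3 without FBB1.5, 2 with the line as a random block and 4 to 8 with single arrays left out. Of 16 cytosolic and mitochondrial heat shock genes, 3 were higher and 2 lower. The mitochondrial chaperone Hspa9 averaged 3731 ± 300 in FBB1.7 and FBB1.10 and 2974 ± 150 in FBB1.5 and FBB1.11 (log2 difference 0.32, limma adjusted p = 0.000362) and passed in every pairing of lines. Hsph1, a cytosolic cochaperone, fell by 0.40 (limma adjusted p = 0.000781), though FBB1.10 overlapped the other side: it averaged 649 in FBB1.7 and 748 in FBB1.10, against 1140 in FBB1.5 and 753 in FBB1.11.

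Over all probe sets, 2590 passed between the side means (10.5% of those tested), 1269 higher (5.15%) and 1321 lower (5.36%) in FBB1.7 and FBB1.10. Single lines moved that count. It was 666 without FBB1.7, 861 without FBB1.5, 2566 without FBB1.10 and 2484 without FBB1.11. With the actin ratio as a covariate it was 1208, and with the line as a random block it was 631. That block gave arrays of a line a common correlation of 0.117 over all probe sets. It still counted arrays, so it does not make the line the unit of the test. Leaving out FBB1.7 array 1 gave 1525 probe sets, FBB1.10 array 1 gave 1457, FBB1.11 array 1 gave 1612 and FBB1.11 array 2 gave 1529. Beside the DNA replication, NuRD, ribosomal and mast cell genes, the calls of Sdf2l1, Dnajc3, Tmx1, Spcs1, Xbp1, Hsph1, Kdelr2, Selenos, Ufd1, Klhl42, Hmgcs1, Urod, Fth1 and Lyl1 were lost under that random block (adjusted p of 0.0637 to 0.169). Of the 2590, 143 lay on chromosome 14, 10 higher and 133 lower, and 189 on chromosome 5, 63 higher and 126 lower. Among probe sets with a known chromosome, chromosome 14 held 3.41% of those tested and 6.11% of the calls. Chromosome 5 held 6.52% and 8.08%. A call between side means can rest on a single line of a side.

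The pairings of single lines differed in reach. FBB1.7 minus FBB1.5 gave 2888 passing probe sets (11.7%), FBB1.10 minus FBB1.5 gave 1390 (5.64%), FBB1.7 minus FBB1.11 gave 1151 (4.67%) and FBB1.10 minus FBB1.11 gave 148 (0.601%). Only 76 probe sets (0.308%) passed in all 4 pairings in one direction, 49 higher (0.199%) and 27 lower (0.11%). Those 76 name 53 genes, 33 higher and 20 lower, and 6 have no single symbol. Leaving out FBB1.7 array 1 gave 39 such probe sets, FBB1.10 array 1 gave 10, FBB1.11 array 1 gave 21 and FBB1.11 array 2 gave 10. Their number is bounded by the 148 that passed between FBB1.10 and FBB1.11. With the actin ratio as a covariate, 56 passed in all 4 pairings. That fit gave 810 for FBB1.7 minus FBB1.5 and 685 for FBB1.10 minus FBB1.5. It gave 975 for FBB1.7 minus FBB1.11 and 183 for FBB1.10 minus FBB1.11.

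Pairings that share no array can be set beside each other. Across the 24642 probe sets, which are not independent replicates, the differences FBB1.7 minus FBB1.5 and FBB1.10 minus FBB1.11 had a Pearson r of 0.29, and FBB1.7 minus FBB1.11 and FBB1.10 minus FBB1.5 had 0.30. In the first pair of contrasts, 87 probe sets passed in both, which is 3.01% of the 2888 and 58.8% of the 148, and 86 of the 87 had the same direction. In the second pair, 330 passed in both, 28.7% of the 1151 and 23.7% of the 1390, and 311 of them had the same direction. Over all tested probe sets, passing or not, 59.1% had the same sign in both contrasts, for either pair. Both pairs of contrasts follow the split that was drawn on Hsp90b1 and Calr, and both overlaps hold their 5 probe sets that passed in all 4 pairings.

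**Figure D2:**
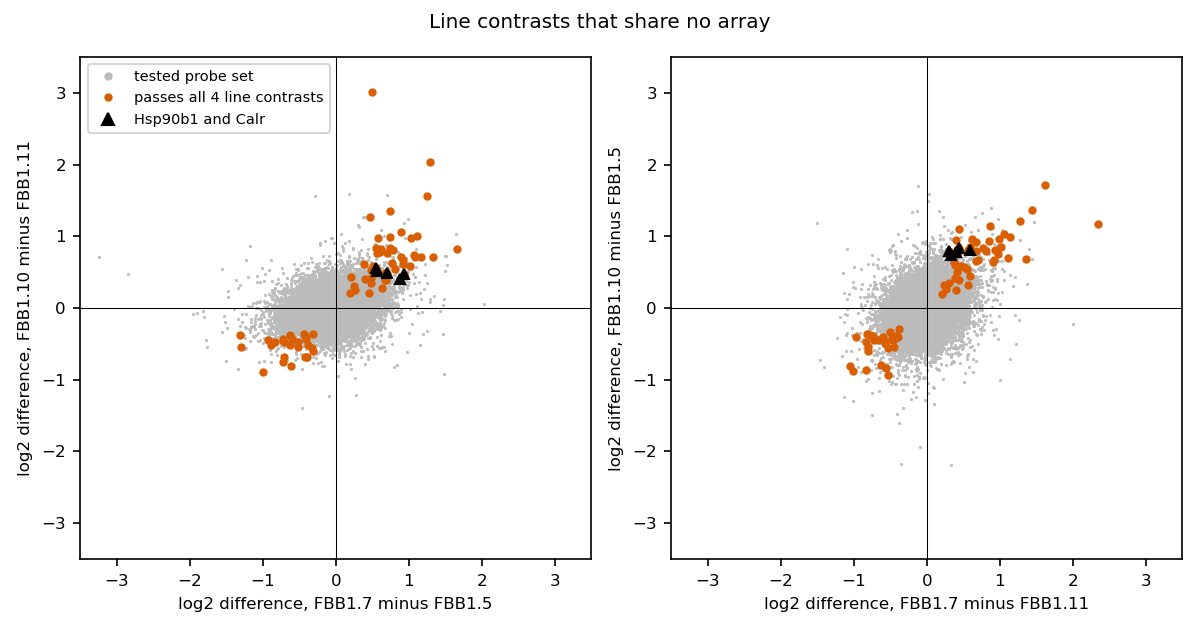
Each point is 1 of 24642 tested probe sets, with the log2 difference of one pairing of lines on the x axis and that of the pairing without a shared array on the y axis; orange points passed in all 4 pairings and black triangles are the probe sets of Hsp90b1 and Calr. The grey cloud leans along the diagonal (r of 0.29 on the left and 0.30 on the right), and the orange points lie in the upper right and lower left corners.

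Hmox1, heme oxygenase, which breaks heme down to iron, biliverdin and carbon monoxide, led the higher genes ranked by their smallest difference over the 4 pairings. It read 517 and 462 in FBB1.7 and 405 and 311 in FBB1.10, against 143 each in FBB1.5 and 196 and 190 in FBB1.11. The log2 difference was 1.25 ± 0.09 (limma adjusted p = 7.56e-07), and the lowest array of FBB1.7 and FBB1.10 stood well above the highest of the other side. The long noncoding RNA Chaserr read 520 and 474 in FBB1.7 and 373 and 258 in FBB1.10, against 191 and 184 in FBB1.5 and 174 and 193 in FBB1.11 (log2 difference 1.02 ± 0.10, limma adjusted p = 1.6e-05). Its second probe set gave 0.22 and did not pass.

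Several higher genes passed on more than 1 probe set. Plek, a protein kinase C substrate of blood cells, passed on 3 of 3 probe sets at log2 differences of 0.78 to 0.98. Dpp7, a lysosomal peptidase, passed on 3 of 3 at 0.63 to 0.80, and Prnp, the prion protein, on 2 of 2 at 0.66 and 0.73. Prnp was bright throughout, at 4007 ± 492 in FBB1.7 and FBB1.10 and 2522 ± 271 in FBB1.5 and FBB1.11 (SD, n = 4 arrays each). Mapre2, a microtubule end-binding protein, and Cd274, the ligand of PD-1, passed the contrast of sides at 0.92 and 0.74 (limma adjusted p of 2.61e-05 and 0.000797) and 3 of the 4 pairings. The others of the 12 ranked higher were Pdia6, Ankrd33b, Paxbp1, 6820431F20Rik and E330020D12Rik, at 0.64 to 0.97.

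Gpx1 and Bex4 also passed in all 4 pairings and are named after their values were seen. Gpx1, glutathione peroxidase, read 5099 and 4916 in FBB1.7 and 4603 and 4530 in FBB1.10, against 3250 and 3166 in FBB1.5 and 3823 and 3693 in FBB1.11 (log2 difference 0.46 ± 0.03, limma adjusted p = 1.33e-06). Bex4 had the largest fitted difference of the 76, but its arrays showed a different shape. It read 121 and 158 in FBB1.7 and 230 and 228 in FBB1.10, against 110 and 78 in FBB1.5 and 15 and 14 in FBB1.11, where it lay below the table median, and 178 and 175 in the parental line.

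Pygl, liver glycogen phosphorylase, led the lower genes. It read 78 and 93 in FBB1.7 and 96 and 90 in FBB1.10, against 206 and 166 in FBB1.5 and 183 and 191 in FBB1.11. Its log2 difference was -0.94 ± 0.09 (limma adjusted p = 1.77e-05), and both lines of each side were close together. Nme4, a mitochondrial nucleoside diphosphate kinase, averaged 251 ± 20.2 in FBB1.7 and FBB1.10 and 422 ± 27.7 in FBB1.5 and FBB1.11 (SD, n = 4 arrays each; log2 difference -0.71, limma adjusted p = 2.8e-05). Mxd4, a Max partner that opposes Myc, had the largest mean difference of the 12 ranked lower. It read 155 and 178 in FBB1.7 and 198 and 280 in FBB1.10, against 674 and 541 in FBB1.5 and 347 and 352 in FBB1.11 (log2 difference -1.15 ± 0.10, limma adjusted p = 8.26e-06), and all 4 of its probe sets were lower.

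Ccnd2, cyclin D2, which drives cells through G1 with Cdk4 or Cdk6, was lower on 6 of 7 probe sets. Its brightest averaged 1410 ± 256 in FBB1.7 and FBB1.10 and 2242 ± 107 in FBB1.5 and FBB1.11 (SD, n = 4 arrays each; log2 difference -0.68, limma adjusted p = 2.06e-05). A Cdk6 probe set that is not its brightest also passed in all 4 pairings, at -0.50. The dynein light chain Dynll1 was lower on 3 of 3 tested probe sets (-0.58 to -0.59). The receptor phosphatase Ptprs (-0.70) passed on 1 of 4 probe sets and the membrane linker Ezr (-0.67) on 1 of 2. Shank3, a scaffold protein, was below the table median on all 4 arrays of FBB1.7 and FBB1.10. There it was at least 1.57-fold lower, the dim arrays being raised to that median. It entered the test and the ranking only through FBB1.5 and FBB1.11, where it was above that median, so no p is given. Ifitm2, S100a1, Tst and Klhl42 completed the 12. Klhl42 lost its call without FBB1.7 array 1, FBB1.10 array 2, FBB1.5 array 1 or either FBB1.11 array.

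Probe sets of a gene did not always agree. In 3 genes with a probe set that passed in all 4 pairings (Mkrn1, Pafah1b1 and Ran), another probe set passed in the opposite direction. A probe set assigned to Rpl22, a ribosomal protein, fell by 0.85 on the log2 scale in all 4 pairings, while the other 2 tested Rpl22 probe sets did not pass.

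**Figure D3:**
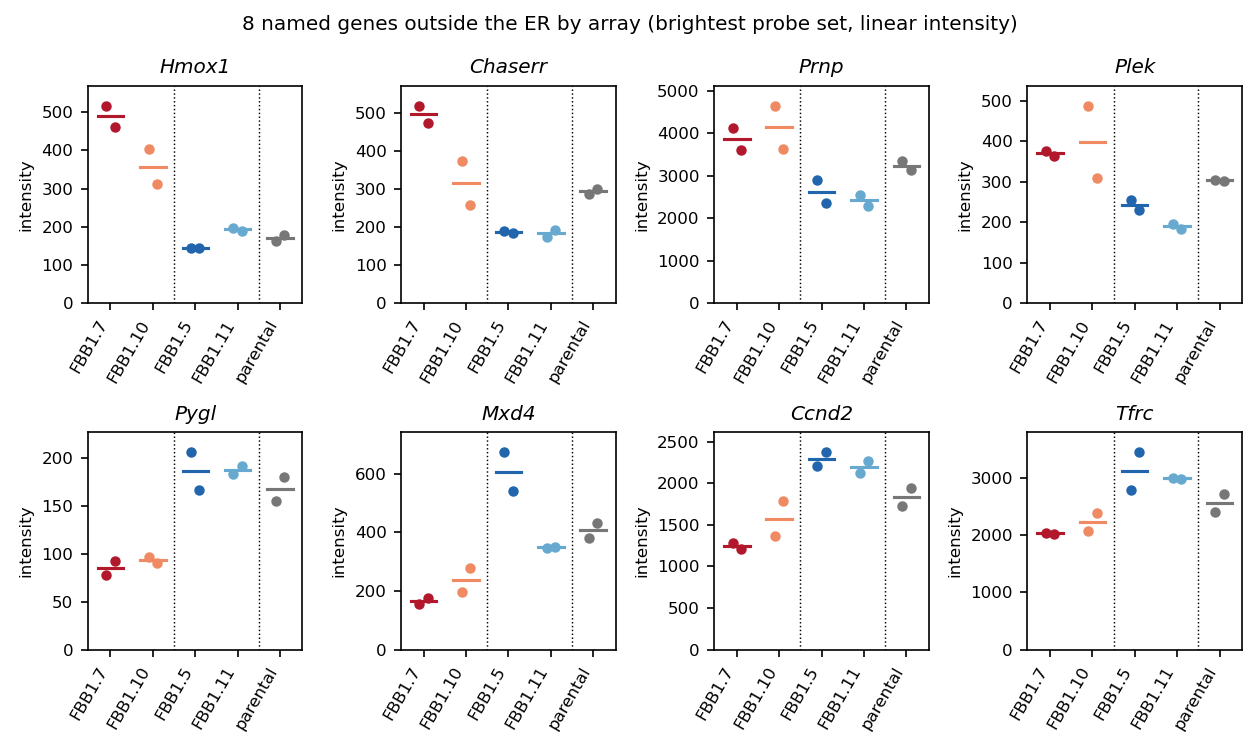
Intensity (linear scale, from 0) of the brightest probe set of 8 genes on each array, drawn as points for arrays and bars for line means of 2 arrays, with dotted lines between FBB1.7 and FBB1.10, FBB1.5 and FBB1.11, and the parental line. Hmox1, Chaserr, Prnp and Plek were higher and Pygl, Mxd4, Ccnd2 and Tfrc lower in all 4 arrays of FBB1.7 and FBB1.10.

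The proteasome degrades ubiquitin-tagged proteins, and 15 of its 31 tested subunit genes were higher in FBB1.7 and FBB1.10, with 0 lower in limma (1 at an unadjusted p under 0.05). Their median log2 difference over all 31 was 0.18. Psmd2, a subunit of the regulatory cap, read 1175 and 1226 in FBB1.7 and 1076 and 1090 in FBB1.10, against 841 and 711 in FBB1.5 and 851 and 792 in FBB1.11 (log2 difference 0.51 ± 0.06, limma adjusted p = 0.000103). Psmd8, also of the cap, was the only member that passed in all 4 pairings (0.45, limma adjusted p = 0.000283). Psmb7, a core subunit, averaged 2004 in FBB1.7 and 1595 in FBB1.10, against 1361 in FBB1.5 and 1363 in FBB1.11. By pairing, 17 members were higher in FBB1.7 than in FBB1.5 and 17 than in FBB1.11, but 5 were higher in FBB1.10 than in FBB1.5 and 1 than in FBB1.11. The ER list had 8 members higher without FBB1.7 and 8 with the line as a random block, with Hsp90b1 and Calr counted. Those genes chose the sides, so the lists cannot be compared by these counts. For the proteasome, the number passing higher was 3 without FBB1.7 and 7 with the line as a random block. It was 21 without FBB1.10, 10 without FBB1.5 and 13 without FBB1.11, and 10 to 15 with single arrays left out.

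Of 18 genes of glycolysis and hypoxia, 7 were higher, 6 of them glycolytic enzymes. Their differences were small and their levels high. Lactate dehydrogenase Ldha had a log2 difference of 0.21 ± 0.02 (limma adjusted p = 6.63e-05) and pyruvate kinase Pkm of 0.28 ± 0.04 (limma adjusted p = 0.00024). The hypoxia genes Vegfa (-0.04), Egln3 (-0.03) and Bnip3 (0.12) did not pass, and Ankrd37 (0.44) did. Of list members with a positive difference of sides, 9 passed between FBB1.7 and FBB1.5 and 6 between FBB1.10 and FBB1.5. Against FBB1.11, 3 passed from FBB1.7 and 0 from FBB1.10. Of 33 oxidative phosphorylation genes, 7 were higher and 3 lower, and the ATP synthase subunit Atp5b passed in all 4 pairings. It averaged 6431 ± 112 in FBB1.7 and FBB1.10 and 5359 ± 195 in FBB1.5 and FBB1.11 (SD, n = 4 arrays each; log2 difference 0.26, limma adjusted p = 0.000151).

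Of 24 DNA replication genes 4 were higher (Mcm2, Mcm5, Rfc4 and Rrm1). Of the 4 pairings, only those of FBB1.7 held higher members, 5 against FBB1.5 and 4 against FBB1.11, and all 4 calls were lost with the line as a random block (adjusted p of 0.106 to 0.212). Of 20 mitosis genes 3 were higher. Mki67, a proliferation marker, averaged 1093 ± 109 in FBB1.7 and FBB1.10 and 769 ± 153 in FBB1.5 and FBB1.11 (log2 difference 0.52, limma adjusted p = 0.00104). Of 23 sterol and fatty acid synthesis genes, 2 were higher and 5 lower. The cholesterol enzymes Hmgcs1 (-0.50) and Dhcr7 (-0.58) had limma adjusted p of 0.00103 each, and both were highest in FBB1.5. Hmgcs1 averaged 132 in FBB1.7 and 144 in FBB1.10, against 247 in FBB1.5 and 163 in FBB1.11. Of 27 cytosolic ribosomal protein genes, 2 were lower (Rps24 and Rpl37). Rps24 lost its call without any 1 of the 8 arrays, and Rpl37 without any except FBB1.7 array 1.

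**Figure D4:**
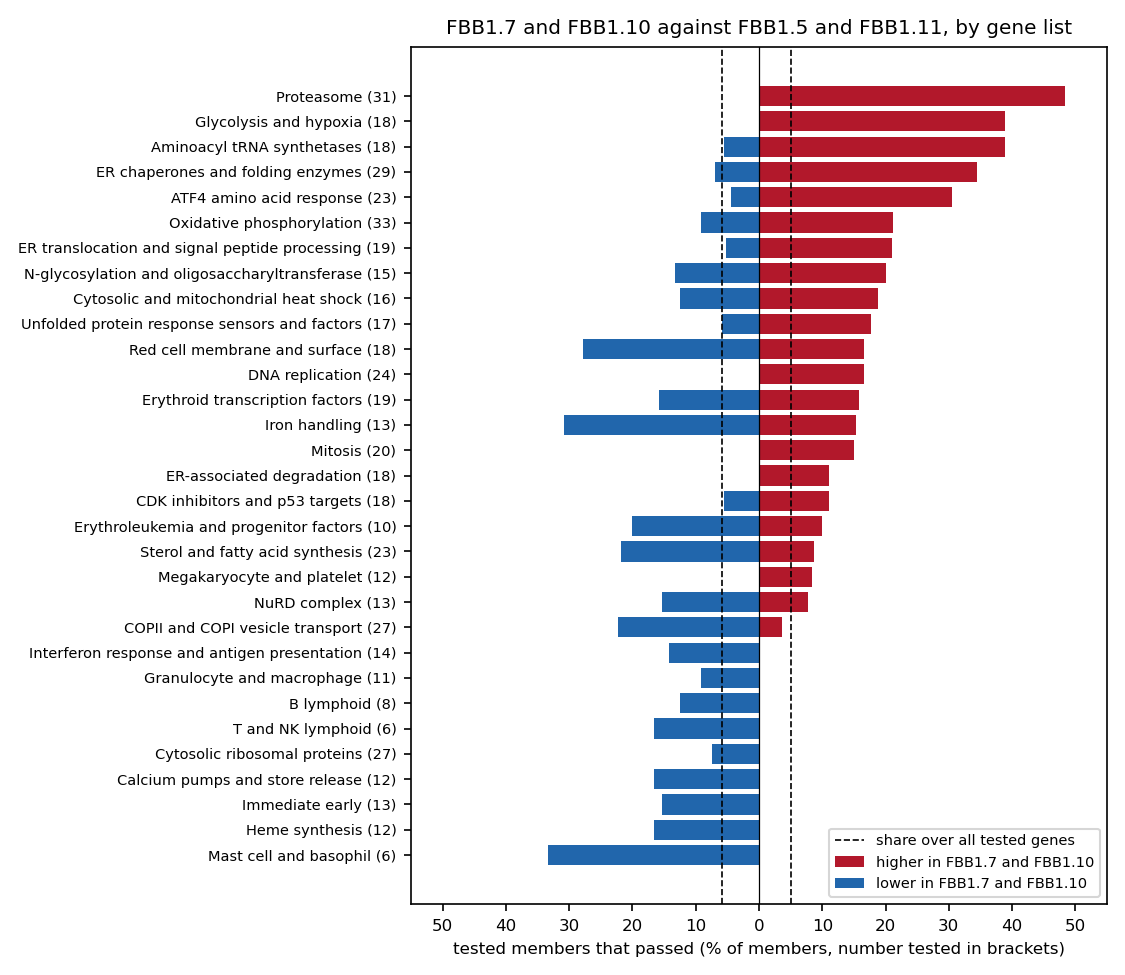
Share of the tested members of each gene list (number tested in brackets, lists of at least 6) that passed higher, to the right, or lower, to the left, in FBB1.7 and FBB1.10 against FBB1.5 and FBB1.11; dashed lines mark the shares over all tested genes, 4.99% and 5.9%. The proteasome list reaches furthest to the right, with 15 of 31 members, and the ER chaperone bar includes Hsp90b1 and Calr.

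Erythroid markers were measured on both sides. In bulk RNA, fewer cells of a type and less RNA per cell cannot be told apart. The summed intensity of 8 measured erythroid markers was 6392 to 7295 in FBB1.7 and FBB1.10 and 7179 to 8048 in FBB1.5 and FBB1.11, and 2 of the 8 (Hba-a1 and Slc4a1) were above the table median on none of the 8 arrays. These sums overlapped between the sides. Without Tfrc they also overlapped, at 4367 to 4900 in FBB1.7 and FBB1.10 and 4284 to 5034 in FBB1.5 and FBB1.11. Globin genes share near-identical copies, so their probe sets cannot be assigned to single genes. Probe sets annotated to several globin genes are not in the sum. The Hba-a1 probe set in it was dim, while the brightest one shared by Hba-a1 and Hba-a2 read 2502 to 3932 on the 8 subclone arrays. The probe set of the adult beta globins had a log2 difference of -0.24 (limma adjusted p = 0.013), and the brightest one of the alpha globins one of 0.24 (limma adjusted p = 0.0146), with FBB1.10 overlapping the other side.

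Iron genes moved in part. Tfrc, the transferrin receptor that brings iron into red cell precursors, read 2048 and 2025 in FBB1.7 and 2078 and 2395 in FBB1.10, against 2788 and 3458 in FBB1.5 and 3014 and 2992 in FBB1.11 (log2 difference -0.52 ± 0.06, limma adjusted p = 7.49e-05). It passed in every pairing of lines, though the other 2 tested Tfrc probe sets (-0.12 and -0.21) did not pass. Steap3, the ferrireductase of the same route, averaged 236 ± 34.6 in FBB1.7 and FBB1.10 and 377 ± 43.1 in FBB1.5 and FBB1.11 (log2 difference -0.64, limma adjusted p = 0.000219). With Hmox1 and ferritin heavy chain Fth1 (0.13) higher, 2 of 13 iron genes were higher and 4 lower. Of 12 heme synthesis genes 2 were lower, Urod (-0.33) and the iron carrier Slc25a37 (-0.62), which lies on chromosome 14. Urod and Slc25a37 passed in the pairings with FBB1.5 and in neither with FBB1.11.

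Of 19 erythroid transcription factor genes, 3 were higher and 3 lower. Zfpm1 (FOG1), the cofactor of Gata1, fell by 0.42 (limma adjusted p = 0.000201), and Tcf3 (E2A) by 0.57 (limma adjusted p = 0.0012). Cbfa2t3 (ETO2), a corepressor, was lower on 3 of 4 probe sets, and one of them passed in all 4 pairings at -0.93. Lyl1 rose by 0.41 (limma adjusted p = 0.00192), while Gata1 (0.06) and Klf1 (-0.04) did not pass. Myc averaged 455 ± 74.5 in FBB1.7 and FBB1.10 and 620 ± 41.8 in FBB1.5 and FBB1.11 (log2 difference -0.45, limma adjusted p = 0.000723). Of 18 red cell membrane genes, 3 were higher and 5 lower. Beta spectrin, Sptb, passed in both directions, at 0.64 on its brightest probe set and -0.74 on the other.

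Of 6 tested mast cell genes, 2 were lower between the side means, Mcpt2 and Cma1, and their arrays overlapped. Cpa3 (-0.25), Tpsb2 (-0.06), Gzmb (-0.06) and Mcpt4 (0.34) did not pass. Mcpt2, a mast cell protease on chromosome 14, averaged 673 in FBB1.7 and 2096 in FBB1.10, against 4988 in FBB1.5 and 1487 in FBB1.11. Its log2 difference was -1.19 (limma adjusted p = 6.41e-07). With the line as a random block its adjusted p was 0.172, and that of Cma1, another mast cell protease, was 0.284. The summed intensity of 12 mast cell and basophil markers was 1053 to 2808 in FBB1.7 and FBB1.10 and 1881 to 6594 in FBB1.5 and FBB1.11, with Fcer1a, Hdc, Mcpt1, Mcpt8, Ms4a2 and Tpsab1 above the table median on none of the 8 arrays. Its part in other results was not tested. Sums for megakaryocyte, granulocyte, B and T cell markers overlapped between the sides.

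Bcl11a itself did not follow the split. Its brightest probe set averaged 344 ± 15.8 in FBB1.7 and FBB1.10 and 328 ± 36.3 in FBB1.5 and FBB1.11 (SD, n = 4 arrays each; log2 difference 0.07, limma adjusted p = 0.649). One probe set read 62 and 65 in FBB1.7 and 233 and 165 in FBB1.10, against 62 and 96 in FBB1.5 and 245 and 181 in FBB1.11, with 40 and 36 in the parental line. It was thus high in 1 line of each side. Of 6 tested probe sets 1 passed, at -0.45. Of 13 genes of the NuRD complex, a known BCL11A partner, 1 was higher (Chd3) and 2 lower (Gatad2a and Mta1). All 3 lost their calls without FBB1.7 array 1 and with the line as a random block.

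The parental arrays took no part in the tests, and their levels were set beside both sides. The actin ratio was 1.22 on parental array 1 and 1.80 on parental array 2, the highest of any array. FBB1.5 array 1 came next, at 1.47. Whether RNA degradation moved the parental levels toward those of FBB1.5 was not tested. Of the 76 probe sets, the parental mean lay nearer to FBB1.5 and FBB1.11 for 67 (88.2%), and without the 5 of Hsp90b1 and Calr for 62 of 71 (87.3%). The share was 75.4% of all probe sets that passed higher between the side means, 72.7% of those that passed lower and 57.3% of all tested. It lay between the sides for 58, beyond FBB1.5 and FBB1.11 for 18 and beyond FBB1.7 and FBB1.10 for 0. With parental array 1 alone the number nearer to FBB1.5 and FBB1.11 was 54, and with array 2 alone 65. Apart from Hsp90b1 and Calr, all 8 higher ER chaperone genes and all 15 higher proteasome genes had a parental level nearer to FBB1.5 and FBB1.11. Hspa5 read 831 and 878 in the parental line and Pdia6 438 and 544. Bex4 had a parental level nearer to FBB1.7 and FBB1.10, as did the brightest probe set of Prnp (3336 and 3142), while the second Prnp probe set was nearer to FBB1.5 and FBB1.11.

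**Figure D5:**
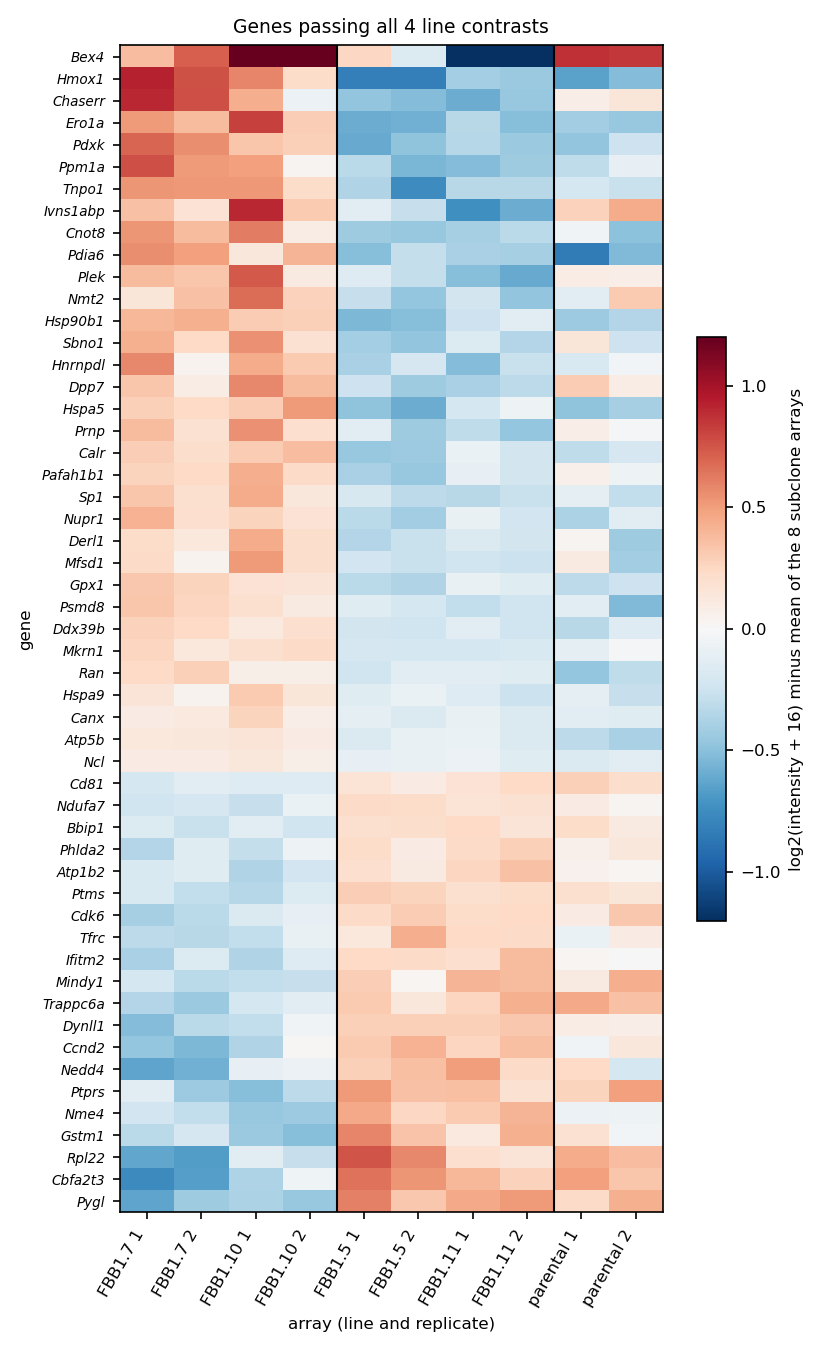
Rows are the 53 genes with a probe set that passed in all 4 pairings (the brightest such probe set), columns the arrays, and colour is log2(intensity + 16) minus the mean of the 8 subclone arrays, with values past 1.2 drawn at the end of the scale. The FBB1.7 and FBB1.10 columns are mostly red for the 33 higher genes and mostly blue for the 20 lower ones, and the parental columns on the right lie nearer to FBB1.5 and FBB1.11 for 67 of the 76 probe sets behind these genes and those without a symbol.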

How the data were processed

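RNA of MEL lines was measured on 10 Affymetrix Mouse Genome 430 2.0 arrays. The authors deposited linear probe set intensities; per the labels' protocols, oligo-dT primed cDNA was transcribed into biotinylated cRNA, and the summary and scaling method was not given in any source used. Of 45101 probe sets, 64 controls were left out. Platform annotation gave 34958 probe sets 1 gene symbol, 932 several and 9211 none; 34754 of the 34958 matched a RefSeq gene of GRCm38.p6.

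Intensities were taken as log2(intensity + 16) without further scaling. A limma 3.58.1 fit (R 4.3.3) of 4 line means on 8 arrays, with an intensity trend and 4 residual degrees of freedom, gave the contrast of sides and 4 pairings of lines. The number of arrays limits the precision. The members, gene lists and tests were chosen with earlier results of these data known. Named genes were Hsp90b1, Calr and Bcl11a, 12 higher and 12 lower genes ranked by the smallest of the 4 line differences, and up to 4 members a list with the smallest p (12 for ER chaperones); other members named with values, and genes named only as passing all 4 pairings, were chosen after their values were seen. Data were simulated for the contrast of sides with 200 of 24642 probe sets changed. Of 100 changes of 0.5 on the log2 scale 65 were recovered, and of 100 changes of 1, 99, with 2 false calls. All 4 pairings together recovered 15 and 77 of these, with 0 false calls. The simulated lines of a side did not differ, so the false calls do not cover differences between single lines. Same-numbered arrays did not deviate together (r of -0.159 to 0.076), so replicate numbers were not used as pairs. Alternatives covered filter, pseudocount, scaling, variance model, line and replicate blocks, and arrays, lines or chromosome 14 left out; leaving out lines, chromosome 14 or the actin ratio's effect was added after the data were seen.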

Additional observations from a re-analysis of the deposited data

How the results depend on the processing

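No named gene that passed changed direction under the alternatives run gene by gene, which leave out those that drop a line or chromosome 14, ignore the line or add the actin ratio. Cd247 and Csf3r, which did not pass, changed sign without FBB1.5 array 1 (-0.04 and -0.01). Without an intensity filter, 1390 probe sets passed between the sides and 4 in all 4 pairings, with 1650 for FBB1.7 minus FBB1.5, 450 for FBB1.7 minus FBB1.11, 495 for FBB1.10 minus FBB1.5 and 7 for FBB1.10 minus FBB1.11. Without an intensity trend the counts in that order were 952, 1, 1389, 59, 181 and 4, and 63 of the 120 named genes that passed did so. With 1 probe set per gene they were 1495, 47, 1763, 764 and 832. The fit on all 10 arrays gave 33 in all 4 pairings and 67 for FBB1.10 minus FBB1.11. Between the sides, 631 passed with the line as a random block (70 named genes), 1007 with the line ignored and 141 against a 1.2-fold minimum. Alternatives added after the data were seen gave 666 without FBB1.7 and 861 without FBB1.5, and the actin ratio as a covariate gave 1208, with 810 for FBB1.7 minus FBB1.5 and 685 for FBB1.10 minus FBB1.5. With 1 array left out, the ranges were 1457 to 2755 between the sides, 10 to 98 in all 4 pairings, 1236 to 2816 for FBB1.7 minus FBB1.5, 340 to 1528 for FBB1.7 minus FBB1.11, 420 to 1374 for FBB1.10 minus FBB1.5, 19 to 223 for FBB1.10 minus FBB1.11 and 99 to 114 named genes. The lowest counts came without array 1 of FBB1.7 or of FBB1.10, except for the named genes (FBB1.11 array 1), and 10 in all 4 pairings also came without FBB1.11 array 2. The cause of these changes was not tested, beyond fewer arrays where arrays were left out. With the replicate block, 2398 passed between the sides and 117 named genes passed. Pseudocounts of 1 and 64, quantile normalization, median centring, stricter filters and robust eBayes kept every count within 1.5 times. Each line had 2 arrays, and each side 2 lines, which limits what any count here can say of other subclones.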
